A study of Mus musculus with 2 samples.

Results

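The olfactory receptor gene clusters of the mouse were examined in 5-hydroxymethylcytosine (5hmC) data from kidney. They were taken as 6 fixed intervals of the mm9 genome build on chromosomes 2, 7 (a proximal and a distal interval), 9, 10 and 19, which together span 12.9 Mb and hold 516 of the 105683 consecutive 25 kb bins of the genome. DNA came from kidneys of male C57BL/6 mice aged 6 weeks, an inbred strain, and the labels do not say from how many animals. The groups were 1 hMeDIP library, in which an antibody against 5hmC recovers DNA fragments that carry the mark, and 1 input library of kidney DNA prepared with no antibody. With 1 library per group there was no replicate error and no test, so every interval below is a 95% interval for counting error only, and sequenced reads may be copies of 1 molecule. Fragments numbered 11424027 for hMeDIP and 8316507 for input.

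Olfactory receptors are G protein-coupled receptors that detect odorants, and they form the largest gene family of the mouse. Their genes lie in long arrays of intronless coding exons. Each olfactory neuron expresses a single receptor, and the arrays are otherwise kept silent in compacted chromatin. 5hmC is made from 5-methylcytosine by TET enzymes and is found mostly at CpG sites of active gene bodies and enhancers.

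Receptor genes also differ from most genes in sequence around their annotated starts. The CpG content of the mm9 intervals was not measured, and any bearing of it on the 5hmC signal was not tested. Gene order and sequences came from RefSeq tables on GRCm38.p6, another build than mm9, so no gene was placed on an mm9 position here, and the arrays are tied to the intervals by chromosome and label only. On chromosome 2 the array ran from Olfr987 to Olfr1274 with 293 receptor genes and pseudogenes and 4 other genes, and on chromosome 7 from Olfr543 to Olfr692 with 158 receptor and 30 other genes. The arrays on chromosomes 9, 10 and 19 held 126, 69 and 91 receptor genes. Windows of 300 bases, from 250 bases before to 50 after the annotated gene start, were listed for 480 of these receptor genes. They held a median of 1 CpG (quartiles 0 and 2), against a median of 8 (quartiles 3 and 21) in the windows of 26081 genes other than olfactory receptors. No CpG at all was found in 34.6% of receptor windows, against 4.77% of the others, and 10 or more CpGs in 0 receptor windows, against 45.5% of the others. In 75.2% of the receptor windows an ATG stood at the annotated start, so most of them show the sequence just before the coding exon and may miss the true start of transcription. Among the 119 windows without that ATG the median was also 1 CpG. The 36 windows of other genes inside the arrays held a median of 2 (quartiles 1 and 4.5). For each of 2 arrays, a receptor at the median CpG count and the gene next to the end of the array are printed with each CpG in capitals. Olfr1030 (GRCm38.p6 chr2:85979062-85979361, plus strand, 1 CpG) and Olfr881 (chr9:37992242-37992541, plus strand, 1 CpG) are odorant receptors. Ptprj (chr2:90479125-90479424, minus strand, 6 CpGs) encodes a receptor-type protein tyrosine phosphatase and Zfp202 (chr9:40192066-40192365, plus strand, 17 CpGs) a zinc finger protein.
Olfr1030: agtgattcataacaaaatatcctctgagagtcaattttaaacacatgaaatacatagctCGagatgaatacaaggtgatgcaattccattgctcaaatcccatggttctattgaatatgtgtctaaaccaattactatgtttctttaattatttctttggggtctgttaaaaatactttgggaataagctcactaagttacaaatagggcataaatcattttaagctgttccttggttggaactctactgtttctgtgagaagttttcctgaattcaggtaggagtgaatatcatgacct
Ptprj: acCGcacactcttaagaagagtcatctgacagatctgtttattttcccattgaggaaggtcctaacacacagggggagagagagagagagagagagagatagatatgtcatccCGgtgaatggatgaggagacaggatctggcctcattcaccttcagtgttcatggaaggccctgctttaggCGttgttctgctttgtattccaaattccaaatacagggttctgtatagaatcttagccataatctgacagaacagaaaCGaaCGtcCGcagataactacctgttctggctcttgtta
Olfr881: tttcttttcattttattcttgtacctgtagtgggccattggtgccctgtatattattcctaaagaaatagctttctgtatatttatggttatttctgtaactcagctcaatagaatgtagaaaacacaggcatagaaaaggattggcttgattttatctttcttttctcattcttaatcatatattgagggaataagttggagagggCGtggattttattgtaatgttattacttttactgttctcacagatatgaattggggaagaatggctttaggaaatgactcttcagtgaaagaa
Zfp202: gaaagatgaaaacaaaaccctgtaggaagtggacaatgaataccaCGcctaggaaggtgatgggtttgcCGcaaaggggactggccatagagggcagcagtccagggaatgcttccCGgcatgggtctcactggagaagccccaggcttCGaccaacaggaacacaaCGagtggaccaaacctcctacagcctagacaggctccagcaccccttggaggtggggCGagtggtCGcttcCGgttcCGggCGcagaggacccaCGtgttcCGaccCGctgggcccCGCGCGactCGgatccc
The capitals are sparse in both receptor windows and denser in the windows of their neighbours, above all in that of Zfp202. Such windows vary widely: the 19 listed for the 3 nearest genes on each side of the arrays held a median of 9 CpGs (quartiles 4.5 and 16), and that of Neurod4, which encodes a neuronal transcription factor and lies next to the chromosome 10 array, held 4.

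The clusters held little 5hmC signal. A region's ratio is its share of hMeDIP fragments over its share of input fragments, so 1 is the mean over the whole genome in these libraries and not a fixed amount of 5hmC. Over all 6 clusters the ratio was 0.327 (0.321 to 0.334), from 14436 hMeDIP and 32098 input fragments. In the 9.69 Mb of flanking sequence within 1 Mb it was 1.15 (1.13 to 1.16), from 50177 hMeDIP and 31871 input fragments. The clusters were thus 3.5-fold lower than their flanks (3.42 to 3.59), and 3.11-fold lower (3.04 to 3.17) than the rest of the autosomes, whose ratio was 1.017 (1.016 to 1.018). They took up 0.522% of the autosomal length and held 0.386% of all input fragments and 0.126% of all hMeDIP fragments.

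The low signal was shared by the clusters, but at more than 1 level. The chromosome 2 cluster, chr2:85100001-90200000, is by far the longest at 5.1 Mb. There the ratio was 0.264 (0.254 to 0.273), from 4331 hMeDIP against 11965 input fragments. On chromosome 9, chr9:37500001-39900000 stood at 0.271 (0.259 to 0.284), from 2402 hMeDIP and 6449 input fragments. The chromosome 10 cluster, chr10:128500001-129600000, stood at 0.275 (0.255 to 0.296), from 953 hMeDIP and 2522 input fragments. The ratios of these 3 clusters on different chromosomes did not differ beyond counting error: chromosome 2 over chromosome 9 was 0.972 (0.916 to 1.03), chromosome 2 over chromosome 10 was 0.958 (0.882 to 1.04), and chromosome 9 over chromosome 10 was 0.986 (0.902 to 1.08). The other 3 lay higher. The distal chromosome 7 cluster, chr7:111100001-112400000, stood at 0.357 (0.335 to 0.379) from 1496 hMeDIP and 3054 input fragments. The proximal one, chr7:109400001-110800000, stood at 0.464 (0.442 to 0.488) from 2577 hMeDIP and 4040 input fragments. The chromosome 19 cluster, chr19:12300001-13900000, stood at 0.479 (0.456 to 0.503) from 2677 hMeDIP and 4068 input fragments. Of the 15 pairs of clusters, 4 had an interval that spanned 1, the 3 pairs above and the proximal chromosome 7 cluster over the chromosome 19 cluster (0.969, 0.904 to 1.04).

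**Figure D1:**
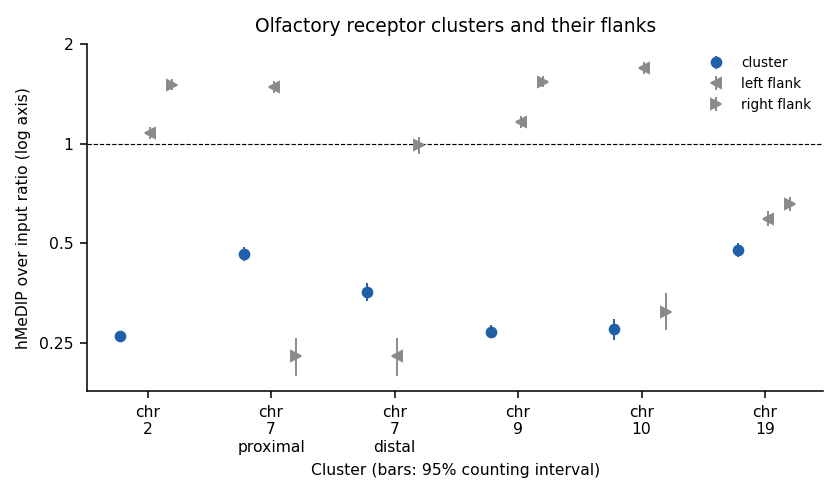
The hMeDIP over input ratio (log axis) of each of the 6 clusters, with its left and right flank beside it and bars for the 95% counting interval, which is often smaller than the symbol. The clusters lie between 0.264 and 0.479, and the 0.3 Mb between the chromosome 7 clusters, shown as a flank of both, lies below them at 0.228.

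Mitochondrial DNA and the longest low domains gave further points of comparison. The ratio of the chromosome 2 cluster was 0.932 (0.880 to 0.987) of that of mitochondrial DNA, which had a ratio of 0.283 (0.270 to 0.296). The corresponding quotients were 0.959 (0.898 to 1.02) for chromosome 9 and 0.973 (0.891 to 1.06) for chromosome 10. The other clusters lay above mitochondrial DNA, with quotients of 1.64 (1.54 to 1.76) for the proximal and 1.26 (1.17 to 1.36) for the distal chromosome 7 cluster and 1.69 (1.58 to 1.81) for chromosome 19, and all 6 together had 1.16 (1.10 to 1.22). The 3 longest low domains of the autosomes, on chromosomes 15, 1 and 14, had a pooled ratio of 0.283 (0.280 to 0.286), and were chosen for being low.

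Flanks differed between clusters more than the clusters did. The chromosome 2 cluster lay below both of its flanks, whose ratios were 1.08 (1.03 to 1.12) on the left and 1.51 (1.45 to 1.57) on the right, a 4.87-fold difference to both together (4.65 to 5.10). The chromosome 9 cluster was 4.97-fold lower than its flanks (4.70 to 5.25), which stood at 1.16 (1.11 to 1.21) and 1.54 (1.48 to 1.60). On chromosome 10 the cluster was 6.15-fold lower than its left flank (5.65 to 6.71), which at 1.69 (1.62 to 1.76) had the highest ratio of all flanks. To its right only 0.388 Mb remain before the highest coordinate in the files, with a ratio of 0.311 (0.274 to 0.353), and the cluster over this end was 0.883 (0.762 to 1.03). With flanks of 1 Mb the chromosome 19 cluster stood out the least. This order depends on the flank width. With flanks of 2 Mb the distal chromosome 7 cluster over its flanks was 0.620 (0.575 to 0.668) and the chromosome 19 cluster 0.609 (0.577 to 0.643). The 1 Mb flanks of the chromosome 19 cluster were themselves low, at 0.594 (0.564 to 0.626) on the left and 0.659 (0.628 to 0.691) on the right. This cluster was 1.31-fold lower than both together (1.23 to 1.39). On GRCm38 the window of Olfr1434, a receptor of this array, lies at chr19:12279604-12279903, a lower coordinate than the left border on mm9. The left flank may thus hold part of the array, which was not tested on mm9.

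Between the chromosome 7 clusters lies chr7:110800001-111100000, 0.3 Mb that the intervals leave out. Its ratio of 0.228 (0.200 to 0.260), from 298 hMeDIP and 951 input fragments, was lower than that of either cluster. The proximal cluster was 2.04-fold (1.77 to 2.35) and the distal cluster 1.56-fold (1.35 to 1.81) above it. In the GRCm38 gene order the chromosome 7 array is interrupted by Hbb-bt, Hbb-bs, Hbb-bh3, Hbb-bh2, Hbb-bh1 and Hbb-y. They belong to the beta-globin family, which encodes the beta chains of haemoglobin in red cell precursors. The outer flanks stood at 1.48 (1.42 to 1.54) beside the proximal and 0.988 (0.934 to 1.05) beside the distal cluster. From 600 to 900 kb past the distal cluster, no 100 kb step held more than 1 hMeDIP and 5 input fragments. The distal value thus rests on the remaining sequence of that flank. Against these outer flanks the proximal cluster was 3.19-fold (2.99 to 3.40) and the distal cluster 2.77-fold lower (2.55 to 3.01). In all, a cluster lay below its flank in 9 of 12 such comparisons, above it in the 2 with the stretch between the chromosome 7 clusters, and within counting error at the end of chromosome 10.

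The 25 kb bins show how evenly the signal was reduced. Of the 516 cluster bins, 492 reached 20 input fragments and were tested. Low bins were those with a log2 ratio under -0.5 and an interval below 1, and 460 of the 492 were called low (93.5%), against 49.3% of the 92442 autosomal bins tested by this rule. High bins, past 0.5 in the other direction, numbered 1 in the clusters (0.203%), against 22.6% of autosomal bins. In the flanks 122 of 366 tested bins were low (33.3%) and 113 were high (30.9%). The median log2 ratio was -1.87 in cluster bins, -0.08 in flank bins and -0.48 in autosomal bins outside the clusters, on a scale with 1 fragment added to each count. Of all tested autosomal bins, 11.2% lay below this cluster median. Of the tested cluster bins, 221 (44.9%) were among the lowest 10% of autosomal bins. Neighbouring bins are not replicates, so these shares are descriptions.

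**Figure D2:**
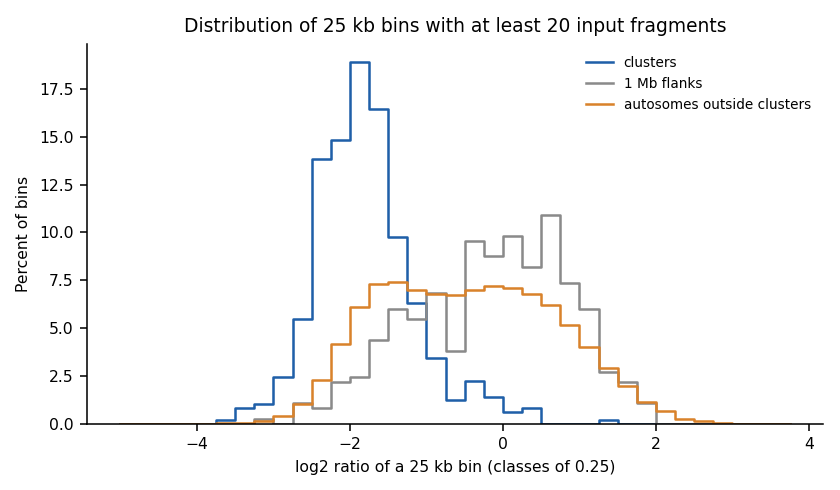
Percent of 25 kb bins with at least 20 input fragments (vertical axis) in classes of 0.25 of the log2 hMeDIP over input ratio (horizontal axis), for clusters, flanks and the rest of the autosomes. Cluster bins form a narrow hill around their median of -1.87, while flank bins spread widely around -0.08.

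Clusters on chromosomes 2, 9 and 10 were nearly uniform. Low bins were 191 of 194 on chromosome 2 (98.5%), 92 of 93 on chromosome 9 (98.9%) and 41 of 42 on chromosome 10 (97.6%). Each bin held few fragments, with medians of 21 hMeDIP and 63 input fragments over all cluster bins, so much of the scatter between them is counting error. On chromosome 10 the SD of the log2 ratio over bins was 0.44, where counting alone gives 0.38. It was 0.53 on chromosome 2, where counting gives 0.39, and 0.54 on chromosome 9, where counting gives 0.36. In the flanks the SD was 1.01, where counting gives 0.23. Along the chromosome 2 cluster the ratio was under 0.5 in every one of 51 steps of 100 kb, from 0.183 to 0.453 with a median of 0.260. The same held for all 24 steps on chromosome 9 (0.194 to 0.456) and all 11 on chromosome 10 (0.201 to 0.399).

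The remaining clusters were mixed. Low bins were 41 of 47 in the distal chromosome 7 cluster (87.2%), 55 of 64 on chromosome 19 (85.9%) and 40 of 52 in the proximal chromosome 7 cluster (76.9%). Their SDs of 0.63, 0.86 and 0.90 exceeded the 0.35, 0.37 and 0.32 expected from counting. Even so, the median bin of the chromosome 19 cluster had a ratio of 0.316 and that of the proximal chromosome 7 cluster 0.287, so a minority of bins raised their pooled values.

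**Figure D3:**
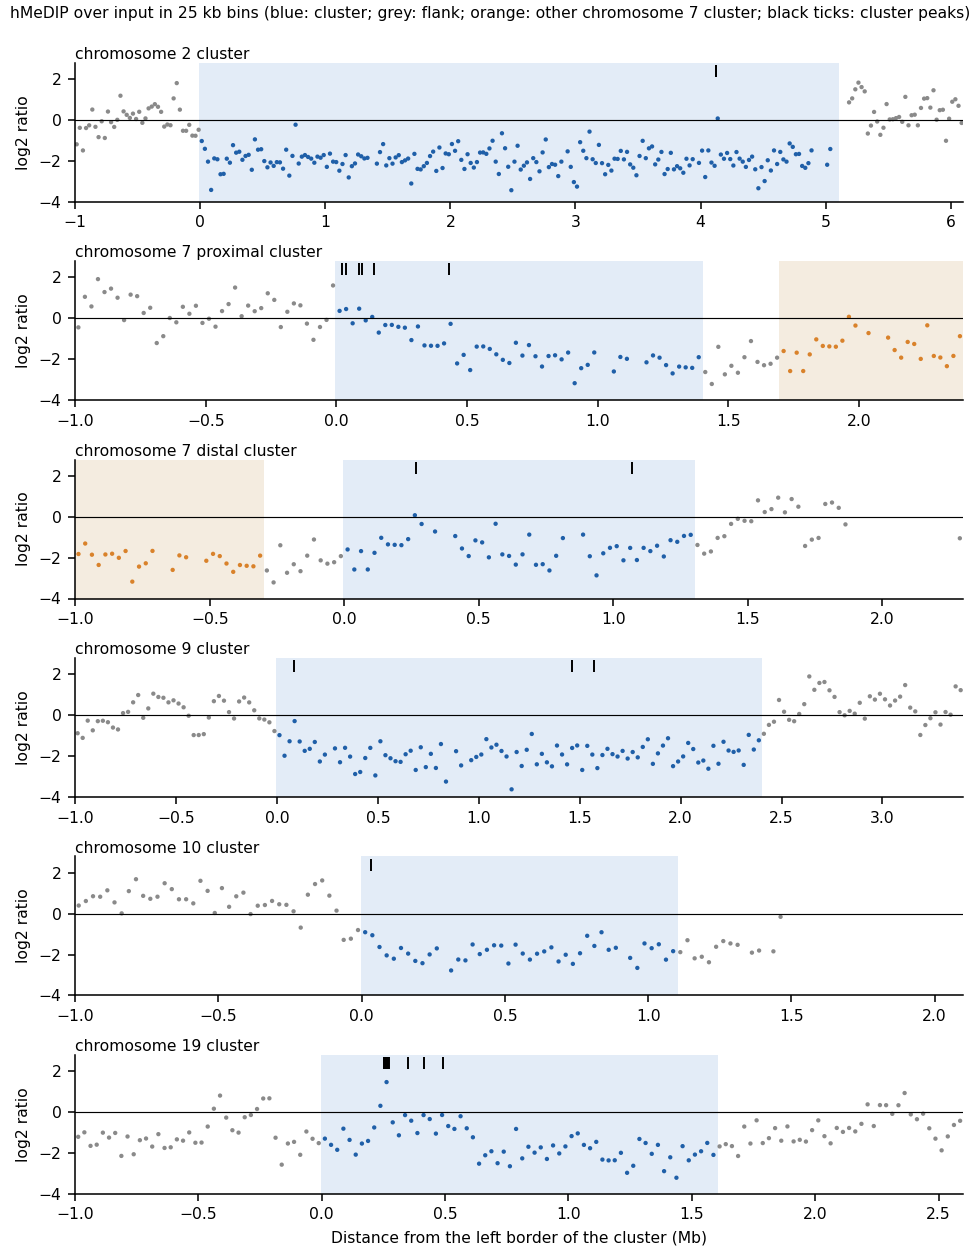
The log2 hMeDIP over input ratio of each 25 kb bin with at least 20 input fragments (vertical axis) against its distance from the left border of the cluster (horizontal axis), for the 6 clusters (blue, shaded) and their flanks (grey), with black ticks for the peaks in the cluster. The panel of chromosome 10 ends at the end of the chromosome, and the chromosome 7 panels also show the other cluster in orange. Nearly all bins on chromosomes 2, 9 and 10 are low, with 3 exceptions on chromosome 2 and 1 on each of the others, while those at the left end of the proximal chromosome 7 cluster and from 0.2 to 0.6 Mb on chromosome 19 stand higher.

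The higher signal on chromosome 19 came from 1 stretch. Split after the values were seen, chr19:12500001-12900000 stood at 0.868 (0.808 to 0.933), from 1660 hMeDIP and 1392 input fragments, and it held all 12 peaks of the cluster. To its left, chr19:12300001-12500000 stood at 0.353 (0.302 to 0.412), and to its right chr19:12900001-13900000 stood at 0.259 (0.238 to 0.281), where all 40 bins were low. In the GRCm38 gene order the array on this chromosome is broken after Olfr1441 by Pfpl, Mpeg1, Dtx4, Fam111a and Glyat, and again after Olfr1443 by Keg1, Cntf, Zfp91 and Lpxn. Mpeg1 encodes a pore-forming protein of macrophages, Dtx4 a ubiquitin ligase of the Deltex family, Glyat a glycine N-acyltransferase of liver and kidney mitochondria, and Cntf a neurotrophic cytokine. Whether these genes lie in the stretch on mm9 was not tested.

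On chromosome 7 the signal sloped down from the left border of the proximal cluster. Consecutive 100 kb steps from chr7:109400001 had ratios of 1.19, 0.846, 0.685, 0.514, 0.418 and 0.298. Past the fifth step, chr7:109900001-110800000 stood at 0.252 (0.232 to 0.274), with all 32 of its tested bins low, which is close to the values on chromosomes 2, 9 and 10. The first 500 kb, chosen after the values were seen, stood at 0.734 (0.687 to 0.784). On GRCm38 the genes just before the array are Stim1 and Rrm1, which encode a calcium sensor of the endoplasmic reticulum and a subunit of ribonucleotide reductase. In the distal cluster a smaller rise lay at chr7:111300001-111500000, also chosen after the values were seen, with a ratio of 0.654 (0.562 to 0.760). The other genes that interrupt the chromosome 7 array in the GRCm38 order include 11 Trim genes and pseudogenes in a row, such as Trim5 and Trim30a. Their family is known for defence against viruses.

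Single bins at either end of the range show the same contrast. The highest bin of all clusters was chr19:12550001-12575000, at 2.79 (2.23 to 3.51), from 379 hMeDIP and 99 input fragments, with 9 peaks. It was the only bin called high. In the proximal chromosome 7 cluster the highest was chr7:109475001-109500000 at 1.4 (1.05 to 1.88) with 2 peaks. The highest bins of the distal chromosome 7 cluster (chr7:111350001-111375000, 1.06, 0.794 to 1.41) and of chromosome 2 (chr2:89225001-89250000, 1.05, 0.764 to 1.46) were at the genome-wide mean and held 1 and 2 peaks. The highest bin on chromosome 9, chr9:37575001-37600000, reached 0.821 (0.562 to 1.20) with 1 peak, and that on chromosome 10, chr10:128500001-128525000, reached 0.528 (0.316 to 0.873) with none. Only 8 of the 492 tested bins lay above 1, against 177 of 366 in the flanks and 33576 of 92442 on all autosomes. No run of 4 or more neighbouring cluster bins did so, and such runs were not counted elsewhere.

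At the low end, chr9:38650001-38675000 stood at 0.0748 (0.0363 to 0.139), from 11 hMeDIP and 107 input fragments. The lowest bin by ratio, chr2:88100001-88125000, stood at 0.0728 (0.00825 to 0.300) but rested on 2 hMeDIP and 20 input fragments. With 1 fragment added to each count, the lowest bin on chromosome 2 was chr2:87575001-87600000, which stood at 0.0846 (0.0392 to 0.163), from 10 and 86 fragments. On chromosome 19 the lowest was chr19:13725001-13750000 at 0.0961 (0.0369 to 0.212), and on chromosome 7 they were chr7:110300001-110325000 at 0.104 (0.0533 to 0.187) and chr7:112025001-112050000 at 0.131 (0.0746 to 0.218). The lowest bin on chromosome 10, chr10:128800001-128825000, rested on 6 hMeDIP and 34 input fragments and stood at 0.128 (0.0441 to 0.310). These intervals overlap one another, so the order of the lowest bins is not resolved at this depth.

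Peaks were nearly absent. The authors' peak list, called on hMeDIP signal, placed 26 peaks in the clusters, or 2.02 per Mb, against 440 in the flanks (45.4 per Mb) and 37.53 per Mb in the rest of the autosomes. The clusters thus held 0.0282% of the 92319 autosomal peaks on 0.522% of the autosomal length. There were 2 peaks on chromosome 2 (0.392 per Mb), 1 on chromosome 10 (0.909 per Mb), 3 on chromosome 9 (1.25 per Mb), 2 in the distal and 6 in the proximal chromosome 7 cluster (1.54 and 4.29 per Mb), and 12 on chromosome 19 (7.5 per Mb). On chromosome 2, 4.13 Mb ran without a peak from the left border, with a ratio of 0.258 (0.248 to 0.268). The longest peak-free stretch was 1.38 Mb on chromosome 9 (0.256, 0.240 to 0.273), 1.11 Mb on chromosome 19 (0.323, 0.301 to 0.347) and 1.07 Mb on chromosome 10 (0.263, 0.244 to 0.284). Peaks can only be called where fragments are present, and the clusters held 0.76 of the input density of the rest of the autosomes and 0.245 of its hMeDIP density.

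The few peaks in the clusters had a median score near that of other peaks and a smaller median width. Their median score in the authors' list was 83.6, against 81.6 for flank peaks and 85.8 for autosomal peaks, and 12 of the 26 stood in the upper part of the whole list when it is split at its median score. Their median width was 926.5 bp, against 1073.5 bp in the flanks and 1153 bp on all autosomes. The best score, 224.51, belonged to chr19:12563933-12565365, with 46 hMeDIP fragments and 1 input fragment. It was followed by chr19:12559251-12560562 with 205.15, 45 hMeDIP and 3 input fragments. Next came chr9:37582213-37583137 with 154.01, 28 and 2 fragments, which lies 82.7 kb inside the left border of its cluster. The only chromosome 10 peak, chr10:128531746-128532349, had a score of 126.62 from 25 hMeDIP fragments and 1 input fragment and lies 32 kb inside the border. On chromosome 2 both peaks shared 1 bin. The stronger, chr2:89226920-89228477, had a score of 112.89 with 30 hMeDIP and 0 input fragments. With 3 input fragments put in place of 0 its ratio would be 7.28, and its counting interval starts at 5.56. The other, chr2:89225765-89226535, had a score of 50.63 with 15 and 2 fragments. On chromosome 7 the best were chr7:111368117-111369343 (101.71, with 25 and 4 fragments) and chr7:112170684-112171321 (56.48, with 13 and 3) in the distal cluster, and chr7:109496514-109497375 (83.75, with 19 and 1) and chr7:109544044-109545234 (83.45, with 22 and 2) in the proximal one. The second peak on chromosome 9, chr9:38963001-38963485, had a score of 64.21 with 14 and 2 fragments. With so few input fragments the fold of a single peak is imprecise. Of the 26 peaks, 7 lay within 200 kb of a border, most of them at the left end of the proximal chromosome 7 cluster. This count was not set against the share of cluster length that lies so near a border.

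Signal between peaks was also lower in the clusters than in the flanks and the rest of the autosomes. In the 500 cluster bins without a peak midpoint the ratio was 0.299 (0.293 to 0.305), against 0.646 (0.631 to 0.660) in the 215 such bins of the flanks and 0.550 (0.549 to 0.551) in the 65332 such bins of the rest of the autosomes. Low calls were 95.8% of the tested peak-free bins in clusters, 62.7% in flanks and 74.5% in the rest. The 3 long low domains, chosen for being low and with only 0.456 peaks per Mb, stood at 0.283 over their whole length, below the peak-free cluster bins. Fragments outside peaks were also compared by distance from the nearest peak edge. Beyond 200 kb, a class with no upper limit, where 68.1% of these cluster input fragments lay, the ratio was 0.259 (0.252 to 0.266) in clusters and 0.331 (0.331 to 0.332) elsewhere on the autosomes. At 100 to 200 kb it was 0.330 (0.312 to 0.349) in clusters and 0.467 (0.465 to 0.468) elsewhere. At 5 to 20 kb it was 0.613 (0.568 to 0.661) in clusters and 0.960 (0.958 to 0.962) elsewhere. Within 1 kb of a peak it was 0.944 (0.756 to 1.18), from 188 hMeDIP and 145 input fragments, and 1.354 (1.349 to 1.359) elsewhere. In each of the 7 distance classes the clusters lay lower, by quotients of 0.584 to 0.781, and the ratio fell with distance from a peak in both.

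**Figure D4:**
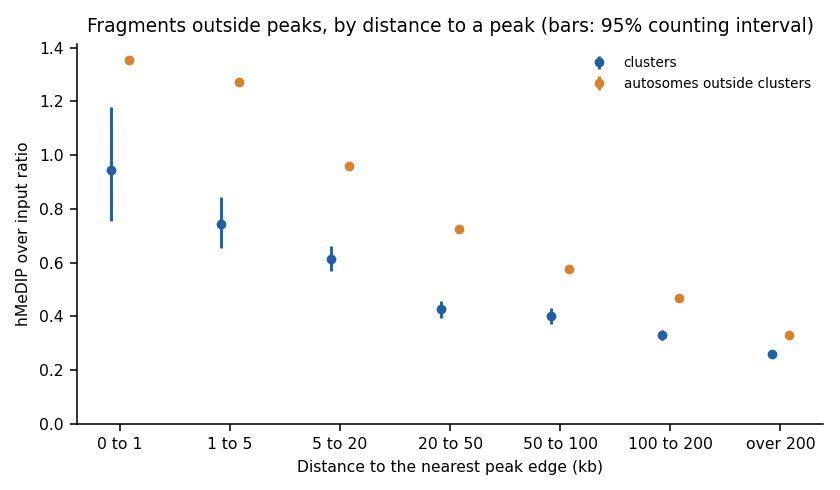
The hMeDIP over input ratio of fragments outside peaks (vertical axis) by distance to the nearest peak edge (horizontal axis), for clusters and for the autosomes outside them, with 95% counting intervals. The clusters lie lower in every class, at 0.259 against 0.331 beyond 200 kb.

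Borders were sharp at several places. At the 9 borders with a full 1 Mb of flank outside any cluster, the pooled ratio was 0.490 (0.459 to 0.523) in the outermost 100 kb of the clusters, 0.720 (0.681 to 0.762) in the first 100 kb of flank and 1.40 (1.34 to 1.46) in the next 100 kb. The medians over the single borders were 0.363, 0.683 and 1.31. The right border on chromosome 2 was the steepest over the first steps, with 0.288 in the last 100 kb of the cluster, 1.56 in the first 100 kb of flank and 2.84 in the next, which alone held 28 peaks. Coverage was thin on both sides of this border, with 81 input fragments in the last cluster step and 62 in the first flank step, against 427 in the next. The interval of the first flank step was 1.15 to 2.15. The 2 cluster bins next to this border had no fragment in either library. At the left border on chromosome 10 the same steps had 0.399, 0.672 and 2.34. On chromosome 9 they had 0.456, 0.793 and 1.56 on the left and 0.322, 0.878 and 0.973 on the right. At the left border of the proximal chromosome 7 cluster the ratio was already high inside, with 1.19, 1.25 and 1.31. The right border of the distal chromosome 7 cluster showed no rise in the first flank step, with 0.480, 0.365 and 0.785. On chromosome 19 the low signal ran on past both borders, with 0.363, 0.353 and 0.348 on the left and 0.267, 0.297 and 0.559 on the right. Whether receptor genes of this array lie beyond these borders on mm9 was not tested. The interval of the first flank step lay above that of the last cluster step at 5 of the 9 borders, and still below 1 at 6 of them, so the fixed intervals do not mark the exact place of the change.

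**Figure D5:**
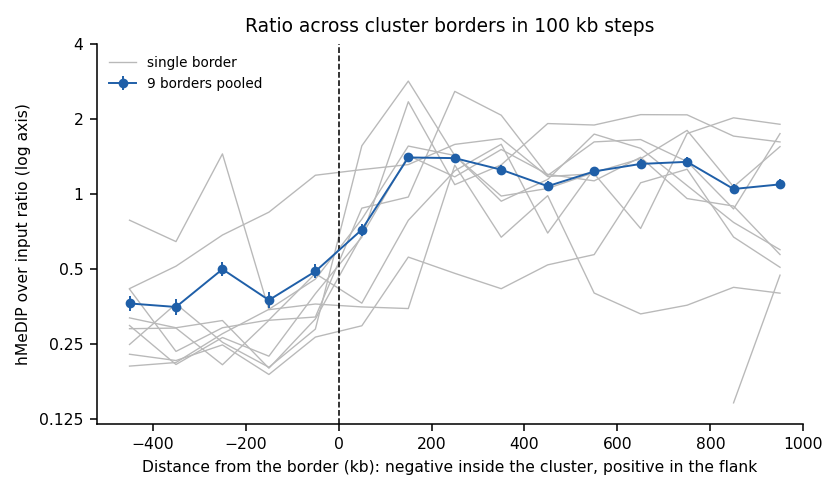
The hMeDIP over input ratio (log axis) in 100 kb steps across cluster borders, with distance inside the cluster negative and in the flank positive, for the 9 borders pooled (blue, 95% counting intervals) and singly (grey). The pooled ratio is 0.490 just inside and 1.40 in the second step outside. The medians over single borders are 0.363 and 1.31. A step with no hMeDIP fragment is left out of the grey lines.

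Input coverage moved with the clusters. They held 2.49 input fragments per kb, against 3.29 in the flanks and 3.27 in the rest of the autosomes. Of their 516 bins, 24 had under 20 input fragments, against 22 of 388 in the flanks and 6458 of 98900 on all autosomes. Bins with no fragment in either library numbered 5 in the clusters, all on chromosome 2, against 12 in the flanks and 4004 on all autosomes. Such thin or empty bins were thus no more frequent in the clusters. In bins with 60 to 79 input fragments the ratio was 0.298 (0.288 to 0.309) in 160 cluster bins and 0.956 (0.954 to 0.958) in 19256 other autosomal bins. In bins with 80 to 99 it was 0.396 (0.382 to 0.410) in 96 cluster bins and 1.13 (1.13 to 1.14) in 37755 other bins. In bins with 20 to 39, where 2371 other bins stood at 0.464 (0.459 to 0.469), 72 cluster bins stood at 0.318 (0.295 to 0.343). The clusters lay lower than other bins of like input count in each of these classes, with the smallest gap at 20 to 39. Whether input coverage bears on the low ratio was not tested. How far reads from near-identical receptor copies were discarded in alignment, or how far CpG content sets antibody recovery, was not tested.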

How the data were processed

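Per the submitters' processing notes, CASAVA and Bowtie 1.0.0 were used, with mouse build mm9. The notes used here give no alignment settings or filters. The authors deposited, per library, stretches of 350 bp with a count of reads each. A line was read here as 1 fragment and placed by its midpoint. Per the file headers, peaks were called with MACS, and the authors' score ranks them. The header also carries an unexplained number range so more libraries than this one may have entered the calls.

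Ratios carry exact conditional binomial (Clopper-Pearson) 95% intervals, and quotients of ratios exact conditional odds ratio intervals. Flanks reach 1 Mb and stop at another cluster or the highest coordinate. Bins of 25 kb needed 20 input fragments. Medians of log2 ratios used a pseudocount of 1. Calls were tested on simulated data. Python 3.11.15, numpy 2.4.6, pandas 2.3.3 and scipy 1.17.1 were used. Named bins are the highest and lowest of each cluster, and named peaks the 2 with the highest score in each. Receptor arrays were the largest run of Olfr genes per chromosome with at most 15 other genes between them. The clusters and comparisons were chosen with earlier results of these data known. Alternatives were another scaling, weighting by reads, 150 bp fragments, other flanks, bins, thresholds, pseudocounts and peak rules.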

Additional observations from a re-analysis of the deposited data

Results flagged for a closer look

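The number of reads per position was not used in the comparisons above. In the clusters 89 of 14436 hMeDIP positions held 2 or more reads, or 0.617% (0.495 to 0.758, exact Clopper-Pearson interval), against 98 of 32098 input positions, or 0.305% (0.248 to 0.372). The hMeDIP share was above that of the input, which is why it is listed here. In the flanks the shares were 1.3% (1.20 to 1.40) for hMeDIP and 0.279% (0.224 to 0.344) for input.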

How the results depend on the processing

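No direction reversed among the ratios, quotients and medians, and 36 of 61 values of the main results stayed close to those given above. Some of these could not change. Rescaling cancels in the cluster over flank quotient, and the calls already left out bins with under 20 input fragments. Shares and counts were taken as close within a wide margin, with no rule for a reversal. The pooled cluster ratio of 0.327 became 0.432 when scaled to the fragments outside peaks, which multiplies every ratio by 1.32. It was 0.314 with only fragments outside peaks, 0.317 without the outermost 100 kb of each cluster, and, in alternatives added after seeing the data, 0.460 when centred on the median autosomal bin, 0.299 without bins that hold a peak, and 0.365, 0.308, 0.342 and 0.305 without the chromosome 2, proximal chromosome 7, chromosome 9 and chromosome 19 cluster. The cluster over flank quotient of 0.286 became 0.353 with only fragments outside peaks, 0.299 with flanks of 0.5 Mb, 0.277 without the outermost 100 kb, and, also added after seeing the data, 0.330, 0.278, 0.315, 0.300 and 0.238 without the chromosome 2, proximal chromosome 7, chromosome 9, chromosome 10 and chromosome 19 cluster. The share of low cluster bins ranged from 89.0% to 96.9% over 9 alternatives. The share of high ones, which rests on 1 bin, was 1.02% scaled outside peaks, 0% with fragments outside peaks, 0.394% in bins of 50 kb and 0.781% in bins of 100 kb. Neither share was recomputed for all autosomal bins, so the contrast in calls with the autosomes is known for the main setting only. The median log2 ratio was -1.47 scaled outside peaks and -1.72 with a pseudocount of 5. Among the peaks with the upper scores 12 lay in clusters, or 0.930 per Mb. The cause of these shifts was not tested, beyond the scalings, which act by construction. For single clusters 26 of 90 values moved beyond their counting interval. No paired analysis was possible because each group has 1 library. Depth limits single bins, with a median of 21 hMeDIP fragments, and single peaks.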
